A study of Mus musculus with 96 samples.

Results

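Hindbrain and forebrain of the inbred mouse strain NOD/ShiLtJ were compared within animals on the Affymetrix Mouse Gene 1.1ST array. The comparison used every 1.1ST array whose label named NOD hindbrain or NOD forebrain, which gave 16 of the 96 arrays of the series. These were 8 hindbrain and 8 forebrain arrays from the same 8 adult male mice. Of these mice, 4 (DD658, DD675, DD676 and DD678) had received clozapine, an antipsychotic drug, and 4 (DD656, DD657, DD659 and DD677) had received vehicle, and all were killed 3 h after the injection. The treatments were pooled and each hindbrain was set against the forebrain of its own mouse. The same RNA had also been run on the older 1.0ST format of the array, which served as a check of direction and not as independent samples. A further 8 C57BL/6J mice, with 16 hindbrain and forebrain arrays of the 1.1ST format, were used only to ask where NOD/ShiLtJ differed. NOD/ShiLtJ is known as a strain that develops autoimmune diabetes, and C57BL/6J is the strain of the mouse reference genome. Values are log2 intensities, and a difference of 1 on this scale is a 2-fold difference in intensity.

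The regions were those of the dissection. According to the study's methods, the cerebellum was taken off and discarded, the brain was split into hemispheres, and in a hemisphere chosen at random curved forceps pushed in at the boundary of both regions lifted out the hindbrain and left the cortex in place. The brains had been taken out with their olfactory bulbs. Which hemisphere was dissected and which array run a sample belonged to are not in the labels, so values within each run are not given here.

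The brainstem holds the cell bodies that supply the rest of the brain with dopamine, serotonin and noradrenaline, and it uses glycine beside GABA for fast inhibition. Its neurons keep in adult life part of the transcription factor code, the Hox genes included, that laid out the embryonic neural tube along its length. The cortex, hippocampus and striatum arise from the telencephalon under a different set of factors, and their principal cells carry dense dendritic spines with a specialised postsynaptic machinery. MicroRNAs are short RNAs that pair with messenger RNAs mainly through their seed, bases 2 to 8, and genes of the same seed share potential targets.

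The microRNAs whose genes are described further on are printed here in their mature form, because several of them are made from more than 1 gene and the array measures these genes separately. Sequences are those of RefSeq on GRCm38.p6, written 5′ to 3′ with the seed in capitals.
miR-128-3p, made from Mir128-1 and Mir128-2: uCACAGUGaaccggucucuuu
miR-9-5p, made from Mir9-1, Mir9-2 and Mir9-3: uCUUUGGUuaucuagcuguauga
miR-138-5p, made from Mir138-1 and Mir138-2: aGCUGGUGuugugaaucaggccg
miR-132-3p: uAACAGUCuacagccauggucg
miR-212-3p: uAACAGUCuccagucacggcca
miR-221-3p: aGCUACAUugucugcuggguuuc
miR-222-3p: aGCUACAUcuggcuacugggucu
miR-135a-5p, here from Mir135a-2: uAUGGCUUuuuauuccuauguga
miR-219a-5p, made from Mir219a-1 and Mir219a-2: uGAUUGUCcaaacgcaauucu
miR-34a-5p: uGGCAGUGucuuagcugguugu
In this set miR-132-3p and miR-212-3p have the same seed, and so do miR-221-3p and miR-222-3p.

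Hindbrain and forebrain differed at 14023 of 28310 transcript clusters, 49.5% of those tested, at a false discovery rate (FDR) below 0.05 in limma with mouse as a block. A cluster is the array's unit for the transcripts of about 1 gene, and a gene past this threshold is said to have risen or fallen in hindbrain. Of all clusters, 28.2% (7977) rose and 21.4% (6046) fell, and centring each array on its median turned this split to 6387 and 11593. Differences of 2-fold or more were found for 815 clusters (2.88%), with 354 higher (1.25%) and 461 lower (1.63%) in hindbrain. Of these 815, 803 had the same direction in 8 of 8 mice and 790 had hindbrain and forebrain arrays that did not overlap. Non-overlapping arrays were found for 17.6% of all clusters. The median difference over all clusters was -0.0018 on the log2 scale, so that the medians of gene lists below can be read against 0. The lists were chosen with earlier results of these data known, so their counts and medians describe them and are not tests.

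A few arrays stood apart from the rest of their region, and values with and without their mice are given beside the results that moved most. The hindbrains of DD658, DD676 and DD678 carried high levels of cerebellar and choroid plexus genes. The forebrain of DD678 carried brainstem genes at levels above those of the other forebrains. Array medians lay between 6.28 and 6.56, with the lowest in the forebrain of DD676. Over the 2-fold clusters, the region difference of each mouse regressed on the mean of the other mice had a slope of 0.77 in DD678, 0.87 in DD656 and 0.94 to 1.09 in the remaining 6 mice.

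The gene that rose most was Slc6a5, which encodes the neuronal glycine transporter GlyT2 and marks glycinergic neurons. Its lowest, median and highest intensities were 10.45, 11.16 and 11.45 in hindbrain and 5.23, 5.62 and 8.15 in forebrain. Every hindbrain was above every forebrain, and the forebrain at 8.15 was that of DD678, while the other 7 lay between 5.23 and 6.34. The difference was 5.09 ± 0.27 (SE, n = 8 mice), or 34.0-fold (FDR = 8.26e-09). Glra1, the main adult subunit of the glycine receptor, followed with 9.94, 10.78 and 11.19 in hindbrain and 4.86, 5.65 and 8.07 in forebrain, a difference of 4.73 ± 0.28 (FDR = 2.40e-08). Of 9 measured genes of glycine transmission, 8 rose and 0 fell, with a median difference of 0.97. Slc6a9, the glial glycine transporter, rose by 1.38 ± 0.08 (FDR = 1.44e-08). Gphn, the scaffold that anchors glycine and GABA-A receptors, was the member that did not pass, at 10.60 ± 0.09 in hindbrain and 10.51 ± 0.05 in forebrain (SD, FDR = 0.0656). In bulk tissue, more cells of a type and more RNA per cell cannot be told apart, here and in all results that follow.

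**Figure D1:**
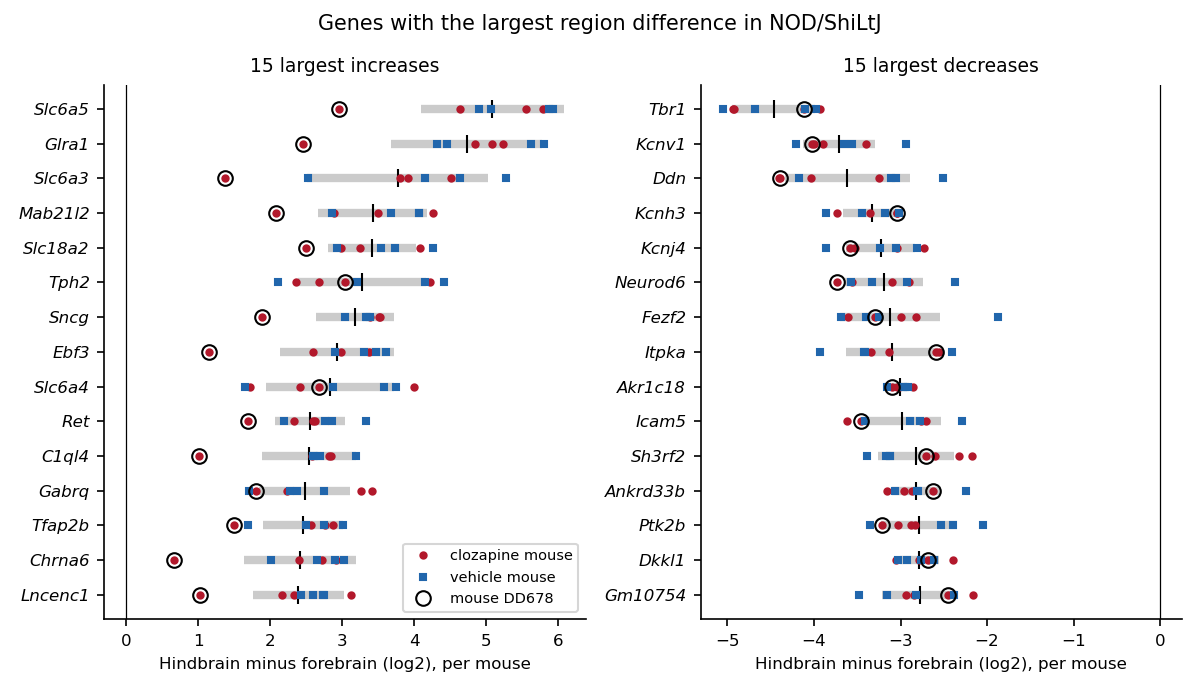
Hindbrain minus forebrain (log2) in each of the 8 mice for the 15 genes that rose most and the 15 that fell most, with clozapine and vehicle mice marked and DD678 circled. DD678 had the smallest difference for Slc6a5 (2.95) and Glra1 (2.46) among the 8 mice.

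**Figure D2:**
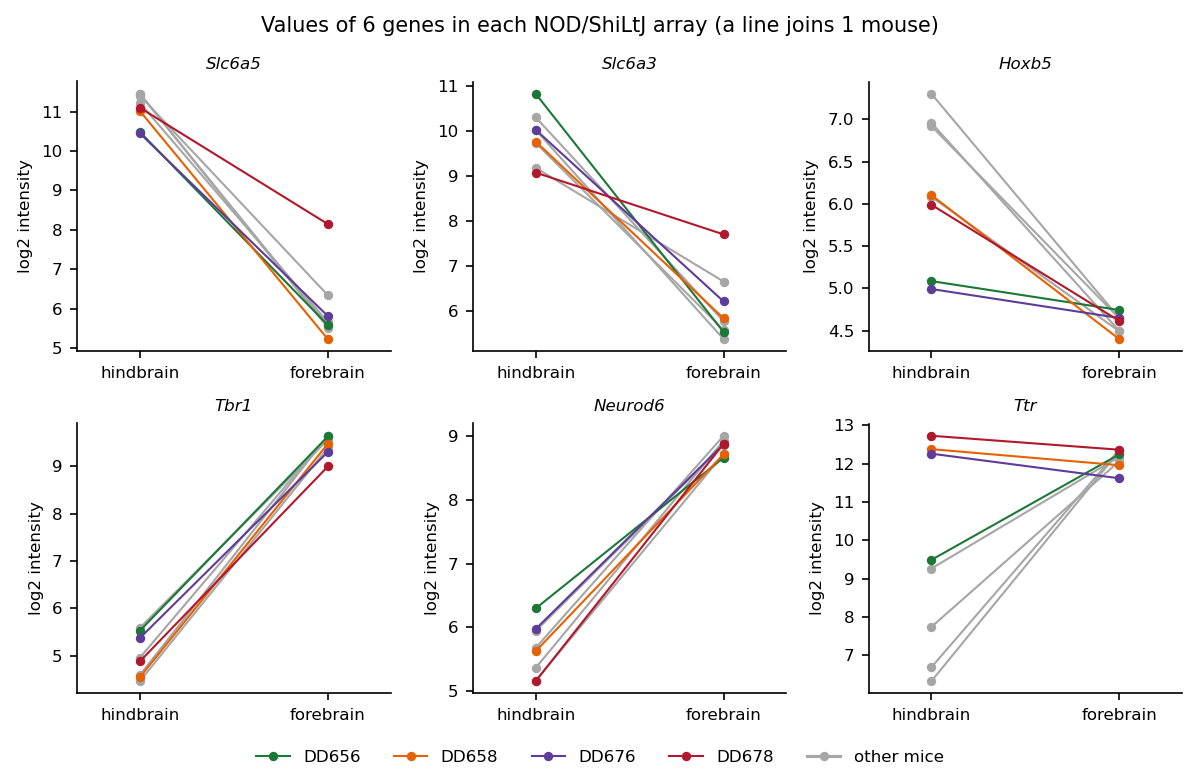
Log2 intensity of 6 genes in every NOD/ShiLtJ array, hindbrain left and forebrain right, with a line for each mouse. Slc6a5 and Slc6a3 were higher and Tbr1 and Neurod6 lower in all 8 hindbrains, whereas hindbrain values of Ttr spread from 6.33 to 12.72 and those of Hoxb5 from 4.99 to 7.30.

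Genes of dopamine neurons formed the list with the highest median difference, 2.26 over 14 measured members, of which 10 rose and 2 fell. Slc6a3, the dopamine transporter, had 9.07, 9.89 and 10.82 in hindbrain and 5.39, 5.81 and 7.71 in forebrain. The groups did not overlap, and the difference of 3.77 ± 0.34 equalled 13.7-fold (FDR = 7.90e-07). Slc18a2, the vesicular monoamine transporter, rose by 3.41 ± 0.17 (FDR = 4.80e-09), and Th, the rate-limiting enzyme of catecholamine synthesis, by 2.25 ± 0.22 (FDR = 1.94e-06). Ddc, the decarboxylase that completes dopamine and serotonin synthesis, rose by 2.37 ± 0.12 and Aldh1a1, an aldehyde dehydrogenase of midbrain dopamine neurons, by 2.27 ± 0.12. Ret, a receptor for neurotrophic factors of the GDNF family, Sncg, which encodes gamma-synuclein, and Chrna6, a nicotinic receptor subunit of dopamine neurons, rose by 2.55 ± 0.14, 3.18 ± 0.15 and 2.41 ± 0.21. DD678 had the smallest differences of the 8 mice for Sncg (1.88) and Chrna6 (0.67), and without it they rose by 3.36 and 2.66. The dopamine list level, the mean over members of each value relative to its mean over the 16 arrays, was -0.19 in the forebrain of DD678 and -0.96 to -0.67 in the other forebrains.

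The members that fell were Drd2 and Nr4a2, neither of which is particular to dopamine neurons. Drd2, the D2 dopamine receptor, is abundant in the striatum, which receives the dopamine fibres, and had 7.72, 8.10 and 8.27 in hindbrain and 8.57, 8.90 and 9.51 in forebrain (difference -0.93 ± 0.09, FDR = 1.12e-06). Nr4a2, a nuclear receptor needed by dopamine neurons, is also made in deep cortex and fell by 1.53 ± 0.18 (FDR = 8.58e-06).

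Of 10 measured serotonin and noradrenaline genes, 7 rose and 1 fell, with a median of 0.64. Tph2, which makes serotonin in neurons, had 7.23, 8.53 and 9.65 in hindbrain and 4.50, 4.93 and 6.61 in forebrain. Slc6a4, the serotonin transporter, had 7.22, 8.55 and 9.71 in hindbrain and 5.26, 5.36 and 7.03 in forebrain. Neither gene overlapped between regions, and the hindbrains spread over more than 2 log2 units for both. The differences were 3.27 ± 0.24 for Tph2 (FDR = 1.50e-07) and 2.83 ± 0.24 for Slc6a4 (FDR = 5.24e-07). The list level was -0.18 in the forebrain of DD678 and -0.67 to -0.52 in the other forebrains, and without DD678 the differences were 3.31 for Tph2 and 2.86 for Slc6a4. Gata3, a transcription factor of serotonin neurons, rose by 2.16 ± 0.19. Dbh, which converts dopamine to noradrenaline, rose by 1.51 ± 0.16 and Slc6a2, the noradrenaline transporter, by 0.60 ± 0.11. Htr1a, a serotonin receptor found in both regions, fell by 0.26 ± 0.05 (FDR = 0.000477).

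Of 18 cholinergic genes 13 rose and 3 fell, with a median of 0.71. Slc5a7, the choline transporter, had 7.85, 8.43 and 8.89 in hindbrain and 6.56, 6.85 and 7.24 in forebrain (1.57 ± 0.08, FDR = 6.20e-09). Slc18a3, the vesicular acetylcholine transporter, rose by 1.52 ± 0.15, Ache, acetylcholinesterase, by 1.16 ± 0.07, and Chat, which makes acetylcholine, by 0.63 ± 0.12. Prph, an intermediate filament of motor and other peripherally projecting neurons, rose by 2.21 ± 0.14 (FDR = 4.42e-08). Receptor genes went both ways. The nicotinic subunit Chrna3 rose by 1.86 and the muscarinic M2 receptor Chrm2 by 1.04, whereas Chrm1, the muscarinic M1 receptor of cortex and hippocampus, fell, with 6.03, 6.55 and 7.10 in hindbrain and 8.98, 9.29 and 9.36 in forebrain (-2.70 ± 0.10, FDR = 5.37e-10). The other members that fell were Chrm3 (-1.02 ± 0.05) and Chrna5 (-0.82 ± 0.12). Neurofilament and large-axon genes moved with the brainstem, 10 of 13 rising and 1 falling with a median of 0.39, and Nefh, the heavy neurofilament chain, rose by 1.31 ± 0.06 (FDR = 3.43e-09).

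Among 38 measured transcription factors of brainstem development, 34 rose and 0 fell, with a median of 0.89. Mab21l2, a gene of eye and midbrain development, rose most, with 8.59, 9.25 and 9.64 in hindbrain and 5.36, 5.66 and 6.94 in forebrain (3.42 ± 0.21, FDR = 2.46e-08). Ebf3 rose by 2.92 ± 0.22, Tfap2b by 2.45 ± 0.16 and En2, which patterns midbrain and cerebellum, by 2.03 ± 0.24. DD678 had the smallest difference for Ebf3 (1.15), which rose by 3.18 without that mouse. Without DD658, DD676 and DD678, the mice whose hindbrains were high in cerebellar genes, En2 rose by 1.41 ± 0.08 (FDR = 4.22e-07). Irx2 and Lhx1, homeobox genes, rose by 1.65 ± 0.08 and 1.53 ± 0.08. On the 1.0ST arrays 31 of the list rose and 1 fell, with a median of 0.42.

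Hox genes, which in the embryo mark the neural tube from the hindbrain backwards, were only partly detected. Of 28 measured, 14 rose and 0 fell, and the median difference was 0.23. The absence of falling members was not kept under other settings, with 13 rising and 6 falling on the 1.0ST arrays (median 0.12) and 14 rising and 4 falling once each array was centred on its median (0.16). More of all clusters fell under these settings as well, 38% on the 1.0ST arrays and 11593 of 28310 after centring. Hoxb5 had 4.99, 6.09 and 7.30 in hindbrain and 4.40, 4.63 and 4.74 in forebrain (1.60 ± 0.24, FDR = 6.82e-05). The regions did not overlap, but the hindbrains of DD676 (4.99) and DD656 (5.09) lay close to the forebrains while the other 6 lay between 5.99 and 7.30. Hoxa5 rose by 1.52 ± 0.22 and Hoxa2, which in the embryo reaches furthest forward, by 1.11 ± 0.17. As a list level, the Hox genes stood at -0.07 in the hindbrain of DD676, -0.03 in that of DD656 and up to 0.59 in that of DD659. How far each dissection reached down the medulla is not recorded in the labels.

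The telencephalic transcription factors mirrored this, with 33 of 36 falling, 0 rising and a median of -1.13. Tbr1, a T-box factor of cortical projection neurons, fell most of all genes, with 4.46, 4.92 and 5.59 in hindbrain and 9.00, 9.52 and 9.65 in forebrain. The regions were separated by more than 3 log2 units, and the difference of -4.47 ± 0.13 was a 22.1-fold decrease (FDR = 1.81e-10). Neurod6, a factor of cortical and hippocampal pyramidal neurons, fell by 3.19 ± 0.13, and Fezf2, which specifies subcortical projection neurons, by 3.12 ± 0.16. Emx2 and Lhx2, factors of the dorsal telencephalon, fell by 1.56 ± 0.07 and 1.99 ± 0.08. Dlx1 and Dlx5, factors of forebrain interneurons and striatum, fell by 1.78 ± 0.11 and 1.79 ± 0.07. Of the 3 that did not pass, Foxp2, a factor of striatum, thalamus and brainstem, had 8.50 ± 0.22 in hindbrain and 8.34 ± 0.20 in forebrain (SD, FDR = 0.0874). Eomes, a factor of olfactory bulb and cerebellar neurons, had 5.36 ± 0.84 and 5.75 ± 0.92, and Neurod1, abundant in cerebellar granule cells, had 7.93 ± 1.49 and 7.84 ± 0.14 in hindbrain and forebrain. Without DD678 Foxp2 rose by 0.24 (FDR = 0.0151), and without DD658, DD676 and DD678 Neurod1 fell by 0.95 (FDR = 4.46e-05) and Eomes by 0.74 (FDR = 0.0147).

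All 28 measured postsynaptic and dendritic genes of pyramidal neurons fell, against 21.4% of all clusters, with a median of -1.26 and 26 of 28 without overlap. Ddn, which encodes dendrin, a protein of dendrites whose messenger RNA travels there, had 6.85, 7.65 and 8.76 in hindbrain and 11.24, 11.32 and 11.42 in forebrain (-3.62 ± 0.20, FDR = 1.09e-08). The forebrains were tightly grouped and the hindbrains were not. Itpka, a kinase of dendritic spines, fell by 3.10 ± 0.15, and Icam5, telencephalin, an adhesion molecule restricted to telencephalic dendrites, by 2.99 ± 0.13. Nrgn, neurogranin, fell by 2.16 ± 0.14 and Camk2a, the alpha chain of the spine kinase CaMKII, by 1.28 ± 0.07. Akr1c18, which breaks down progesterone and related steroids, had 3.93, 4.12 and 4.54 in hindbrain and 6.90, 7.14 and 7.58 in forebrain, an 8.01-fold decrease. Its differences had an SD of 0.10 over the 8 mice. Ptk2b, a calcium-activated tyrosine kinase of excitatory synapses, fell by 2.78 ± 0.12 in NOD/ShiLtJ and by 1.92 in C57BL/6J (strain difference -0.86, FDR = 0.030).

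Of 55 potassium channel genes 18 rose (32.7%, against 28.2% of all clusters) and 26 fell (47.3%, against 21.4%), with a median of -0.13. The rising share lay near that of all clusters. Those that fell most were Kcnv1, a silent subunit that modifies other channels (-3.71 ± 0.12, FDR = 2.16e-10), Kcnh3, a telencephalic channel of the ether-a-go-go family (-3.33 ± 0.10, FDR = 1.57e-10), and Kcnj4, an inward rectifier of the postsynaptic density (-3.23 ± 0.11, FDR = 4.22e-10). Kcng4, another silent subunit, rose, with 7.22, 7.66 and 8.15 in hindbrain and 5.48, 5.80 and 6.21 in forebrain (1.92 ± 0.07, FDR = 3.77e-10). Kcnj16, an inward rectifier of glia and chemosensory brainstem cells, rose by 1.42 ± 0.07.

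Enzymes of long-term potentiation, the lasting strengthening of synapses, mostly fell, 21 of 31 against 5 that rose, with a median of -0.32. Plcb1, a phospholipase C of cortex and hippocampus, fell by 1.48 ± 0.05, whereas Plcb4, its counterpart in thalamus, brainstem and cerebellum, rose by 0.97 ± 0.06. Prkca and Prkcb, protein kinases C, fell by 1.23 ± 0.06 and 0.93 ± 0.06, and Adcy8, a calcium-stimulated adenylyl cyclase, rose by 0.59 ± 0.07.

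Of 20 genes of striatal medium spiny neurons, 19 fell and 0 rose, with a median of -1.29. Drd1, the D1 dopamine receptor of the direct pathway, had 5.73, 6.05 and 6.68 in hindbrain and 8.47, 8.69 and 9.29 in forebrain (-2.62 ± 0.09, FDR = 3.25e-10). Gpr6, a receptor of the indirect pathway, fell by 2.68 ± 0.13 and Bcl11b, the factor CTIP2, by 2.19 ± 0.08. Rgs9 and Ppp1r1b, which act on dopamine signals within the cell, fell by 1.97 ± 0.08 and 2.16 ± 0.10.

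Activity-induced immediate early genes were lower in hindbrain as well, 14 of 20 falling and 1 rising with a median of -0.96. Egr3 had 5.94, 6.31 and 6.56 in hindbrain and 8.48, 8.64 and 8.95 in forebrain (-2.40 ± 0.09, FDR = 7.54e-10), Egr1 fell by 1.67 ± 0.09, and Arc, whose protein acts at active synapses, by 1.22 ± 0.16. The member that rose was Fos, by 0.17 ± 0.07 (FDR = 0.0362), and on the 1.0ST arrays its difference was -0.082. Fos was not called when DD656, DD657, DD677 or DD678 was left out.

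Genes of the thalamic list were mostly higher in hindbrain, 19 of 21 rising (90.5%, against 28.2% of all clusters) and 1 falling with a median of 0.77. The list shares Zic1 and Zic4 with the cerebellar list and Pou4f1 with the brainstem factors, so its counts do not place the thalamus in either piece. Slc17a6, the vesicular glutamate transporter VGLUT2 of thalamus and brainstem, had 11.24, 11.38 and 11.57 in hindbrain and 8.63, 9.08 and 10.21 in forebrain (2.31 ± 0.16, FDR = 1.01e-07). Calb2, which encodes calretinin, rose by 2.00 ± 0.16. Six3 was the member that fell (-0.37 ± 0.07). In the fit of all 48 arrays with 5 surrogate variables, 17 of the list rose and 2 fell, with a median of 0.48. Hypothalamic genes were more mixed, 16 of 27 rising, 1 falling and a median of 0.36. Gal, galanin, had 6.37, 8.02 and 8.45 in hindbrain and 5.30, 5.83 and 6.73 in forebrain (1.92 ± 0.20, FDR = 3.16e-06). Hcrt, the orexin precursor made only in lateral hypothalamus, varied most, with 6.00, 7.69 and 9.25 in hindbrain and 5.83, 6.10 and 6.33 in forebrain, and rose in 7 of 8 mice (1.64 ± 0.32, FDR = 0.000481). Oxt, Avp and Trh, precursors of oxytocin, vasopressin and thyrotropin-releasing hormone, rose by 0.84 ± 0.21, 0.66 ± 0.19 and 0.63 ± 0.19. Avp was not called without DD658, DD676 and DD678 (0.36, FDR = 0.0797).

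**Figure D3:**
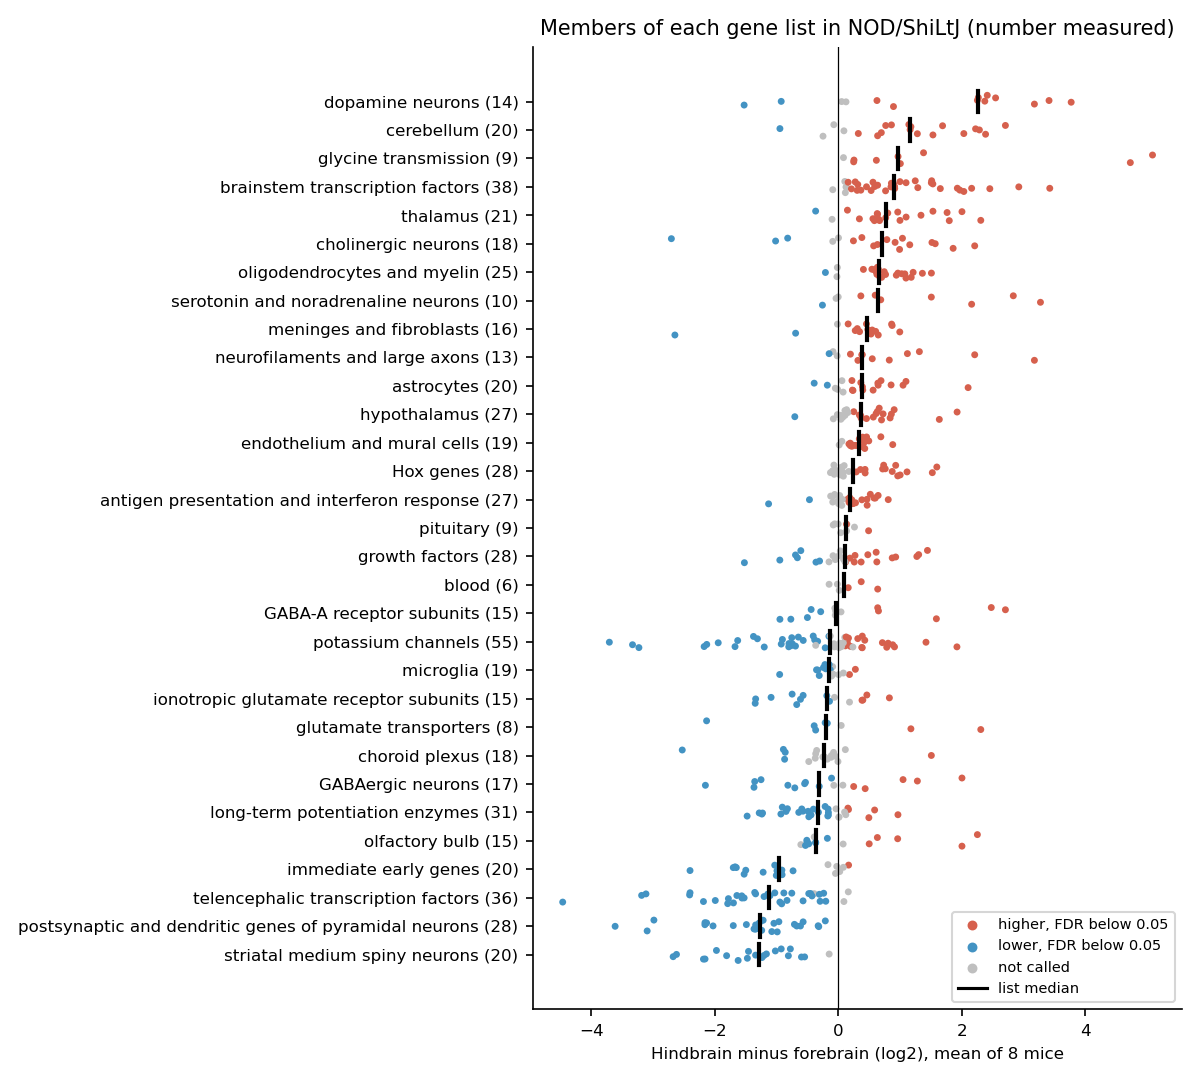
Each point is the mean hindbrain minus forebrain difference (log2) of 1 list member over 8 mice, coloured by whether it rose, fell or was not called, and the black bar is the list median. Dopamine neurons (median 2.26) lie at one end and striatal medium spiny neurons (-1.29) and pyramidal postsynaptic genes (-1.26) at the other.

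The region difference of NOD/ShiLtJ differed from that of C57BL/6J at 289 clusters (1.02%) in limma on 1 within-mouse difference per mouse, 106 with the NOD/ShiLtJ difference above (0.374%) and 183 with it below (0.646%). In C57BL/6J 51.1% of clusters were called between hindbrain and forebrain and 2.7% with a 2-fold difference. Of the 815 2-fold clusters in NOD/ShiLtJ, 811 had the same direction in C57BL/6J, and 603 were also 2-fold and called there. Of the 21 thalamic genes, 10 were below in NOD/ShiLtJ and 0 above, with a median strain difference of -0.58. Leaving out single mice of either strain left 8 to 10 of them, leaving out DD658, DD676 and DD678 left 7, and on the 1.0ST arrays 5 were called. Of the 28 pyramidal postsynaptic genes, 4 were below and 0 above, with a median strain difference of -0.28. Of the 20 striatal genes 0 were called, with a median of -0.34.

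Prkcd, a protein kinase C of thalamic relay neurons, had within-mouse differences of 0.66, 1.21 and 2.07 (lowest, median and highest) in NOD/ShiLtJ and 2.41, 2.87 and 3.67 in C57BL/6J. These did not overlap, and the strain difference was -1.71 ± 0.23 (SE, n = 8 mice each, FDR = 0.000322). Mean Prkcd intensities were 9.91 in NOD/ShiLtJ hindbrain and 10.61 in C57BL/6J hindbrain, and 8.57 in NOD/ShiLtJ forebrain and 7.56 in C57BL/6J forebrain. Synpo2, an actin-binding protein, and Rgs16, a regulator of G-protein signalling, had strain differences of -1.16 ± 0.18 (FDR = 0.00167) and -1.02 ± 0.17 (FDR = 0.00332), again without overlap. Other thalamic genes below in NOD/ShiLtJ were Ramp3 (-0.94), Plekhg1 (-0.91), Tnnt1 (-0.82), Lef1 (-0.71), Ptpn3 (-0.66), Six3 (-0.58, FDR = 0.0482) and Tcf7l2 (-0.96, FDR = 0.0484). Of these, Six3 and Tcf7l2 were near the threshold and lost the call when 13 and 12 of the 16 mice were left out singly, and Tnnt1, Lef1, Ptpn3, Six3 and Tcf7l2 were not called on the 1.0ST arrays. As a list level, the thalamic genes stood at 0.26 to 0.60 in NOD/ShiLtJ hindbrains and 0.54 to 1.14 in C57BL/6J hindbrains, and at -0.77 to -0.04 in NOD/ShiLtJ forebrains and -0.81 to -0.47 in C57BL/6J forebrains. The strains overlapped in both regions. Median levels were 0.46 in NOD/ShiLtJ and 0.74 in C57BL/6J hindbrains, and -0.48 in NOD/ShiLtJ and -0.71 in C57BL/6J forebrains. The NOD/ShiLtJ median was thus lower in hindbrain and higher in forebrain. A strain difference in expression and a difference in where the tissue parted cannot be told apart from these data.

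Outside the thalamic list, Tmprss11d, a membrane serine protease, differed most with the NOD/ShiLtJ difference above. Its intensities in NOD/ShiLtJ were 5.09, 5.40 and 5.89 in hindbrain and 3.53, 3.61 and 3.88 in forebrain, a difference of 1.76 ± 0.10, while the C57BL/6J means were 3.63 in hindbrain and 3.68 in forebrain. The strain difference was 1.80 ± 0.12 (FDR = 7.25e-08). Rarres1, a retinoid-responsive gene, had a region difference of 0.79 in NOD/ShiLtJ and -0.02 in C57BL/6J (strain difference 0.81 ± 0.15, FDR = 0.0103), and Hspb8, a small heat shock protein, 1.54 in NOD/ShiLtJ and 0.72 in C57BL/6J (0.81 ± 0.13, FDR = 0.00293). Serpina1b, a serine protease inhibitor whose near-identical relatives may share its probes, differed by 1.02 in NOD/ShiLtJ and -0.15 in C57BL/6J (1.17 ± 0.26, FDR = 0.0329), and this was not called without DD658, DD676 and DD678 (FDR = 0.0953) or in 8 of the 16 fits that left out a single mouse (highest FDR = 0.0766).

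Crnde, a long noncoding RNA, differed by 0.29 in NOD/ShiLtJ and 1.62 in C57BL/6J (-1.32 ± 0.15, FDR = 6.22e-05). Ccl19, a chemokine that guides T cells and dendritic cells, was the only 2-fold change among 27 antigen presentation and interferon genes, with 8.76, 8.89 and 9.00 in hindbrain and 9.63, 10.06 and 10.17 in forebrain of NOD/ShiLtJ (-1.13 ± 0.06, FDR = 1.14e-08). In C57BL/6J it averaged 6.83 in both regions, and the strain difference was -1.12 ± 0.14 (FDR = 0.000173). The transcript 4930578G10Rik averaged 4.96 in hindbrain and 4.97 in forebrain of NOD/ShiLtJ, and 8.07 and 9.59 in hindbrain and forebrain of C57BL/6J. Its region difference was -0.01 ± 0.21 in NOD/ShiLtJ, against -1.51 in C57BL/6J (1.50 ± 0.34, FDR = 0.0362), and this strain difference was not called on the 1.0ST arrays (FDR = 0.314) or in 9 of the 16 fits that left out a single mouse. Whether sequence differences between the strains under the probes moved any of these values was not tested.

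**Figure D4:**
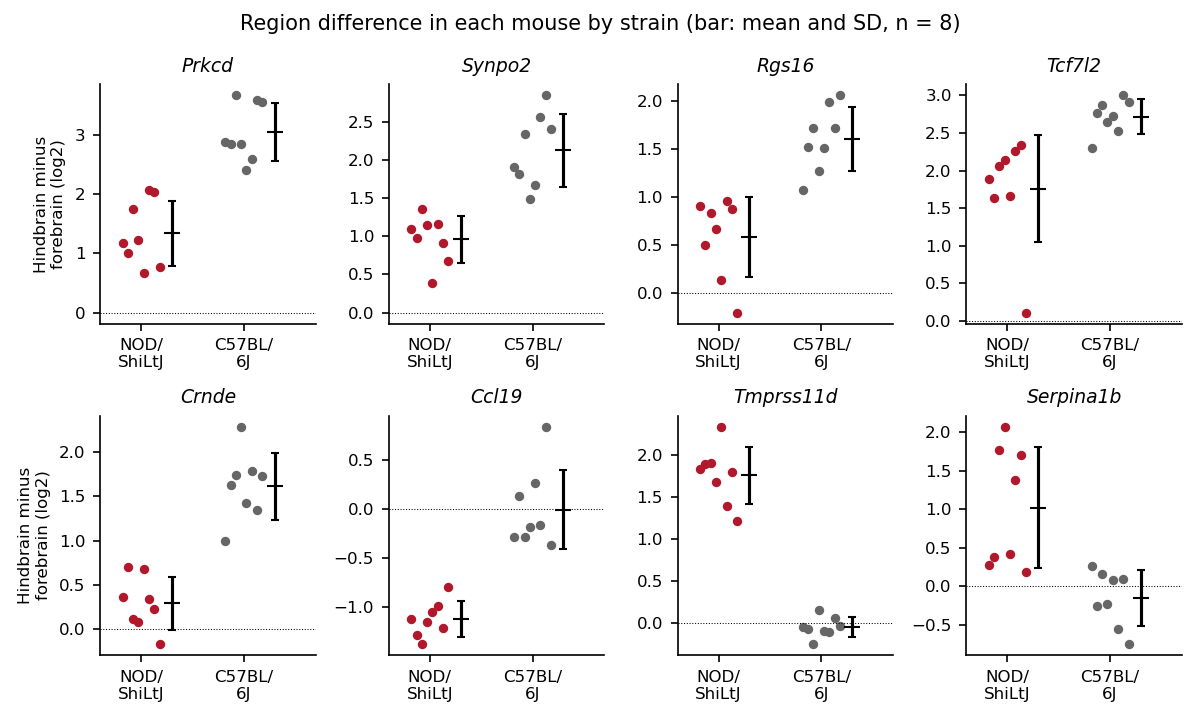
Hindbrain minus forebrain (log2) in each of 8 NOD/ShiLtJ and 8 C57BL/6J mice for 8 genes, with the mean and SD beside the points. Prkcd, Synpo2, Rgs16, Crnde, Ccl19 and Tmprss11d do not overlap between the strains, and Tcf7l2 and Serpina1b do.

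Genes of glutamate and GABA transmission, used across the brain, went both ways within their families. Of 8 glutamate transporters, 2 rose (25%, against 28.2% of all clusters) and 5 fell (62.5%, against 21.4%). Slc17a7, the cortical vesicular transporter VGLUT1, had 9.36, 9.65 and 10.12 in hindbrain and 11.69, 11.84 and 11.95 in forebrain (-2.13 ± 0.09, FDR = 1.07e-09), the reverse of Slc17a6 above. Slc1a6, the transporter EAAT4, rose by 1.18 ± 0.16 (0.83 without DD658, DD676 and DD678) and Slc1a2, the main astrocyte transporter GLT-1, fell by 0.39 ± 0.05. Of 15 ionotropic glutamate receptor subunits, 4 rose (26.7%) and 9 fell (60%). In both lists the rising share lay near that of all clusters. The NMDA receptor subunits Grin2a and Grin2b fell by 1.34 ± 0.06 and 1.35 ± 0.06, whereas Grin2d, the subunit typical of brainstem and midbrain, rose by 0.83 ± 0.08.

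Among 17 genes of GABAergic neurons, 5 rose (29.4%) and 10 fell (58.8%), and here too the rising share lay near that of all clusters. Vip and Npy, peptides of cortical interneurons, fell by 2.15 ± 0.09 and 1.37 ± 0.05, and Pvalb, parvalbumin, rose, with 10.12, 10.39 and 11.05 in hindbrain and 8.77, 9.19 and 9.66 in forebrain (1.28 ± 0.10, FDR = 2.57e-07), and by 1.11 without DD658, DD676 and DD678. The enzymes that make GABA differed little, Gad1 falling by 0.11 ± 0.04 (FDR = 0.0226, and 0.0947 without DD658, DD676 and DD678) and Gad2 at 10.84 ± 0.13 in hindbrain and 10.76 ± 0.08 in forebrain (SD, FDR = 0.0909). Of 15 GABA-A receptor subunits, 5 rose and 5 fell (33.3% each, against 28.2% and 21.4% of all clusters). Gabrq, the theta subunit of monoamine nuclei, had 8.02, 8.50 and 8.77 in hindbrain and 5.07, 6.17 and 6.68 in forebrain (2.48 ± 0.17, FDR = 8.92e-08), and Gabre, the epsilon subunit, rose by 1.59 ± 0.08. Gabra4, a thalamic and forebrain subunit, fell by 0.77 ± 0.09.

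MicroRNA genes were covered sparsely. Of 1058 microRNA genes in the RefSeq table, 277 were named by a cluster, of which 37 (13.4%) rose and 54 (19.5%) fell, with a median of -0.02. These shares lie below the 28.2% and 21.4% of all clusters. On the 1.0ST arrays 45 rose and 113 fell with a median of -0.06, where 30.5% of all clusters rose and 38% fell. The falling share of microRNA genes was not below that of all clusters there. The probes lie in the hairpin or its primary transcript and do not measure the mature microRNA, and the genes described were chosen after their values were seen. Both genes of miR-128-3p fell. Mir128-1 had 7.32, 7.69 and 8.27 in hindbrain and 9.33, 9.94 and 10.17 in forebrain (-2.14 ± 0.15, FDR = 1.07e-07), and Mir128-2 had 5.48, 5.64 and 5.80 in hindbrain and 6.50, 6.64 and 7.06 in forebrain (-1.05 ± 0.08, FDR = 1.98e-07). Neither overlapped. Their host genes fell too, R3hdm1, host of Mir128-1, by 1.21 ± 0.06 (FDR = 6.24e-09) and Arpp21, host of Mir128-2, by 1.47 ± 0.05 (FDR = 4.38e-10).

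The 3 genes of miR-9-5p all fell but by unequal amounts, Mir9-2 by 0.91 ± 0.06 and Mir9-1 and Mir9-3 by 0.31 ± 0.10 and 0.31 ± 0.07. The same held for miR-138-5p, with Mir138-2 falling by 0.71 ± 0.05 and Mir138-1 by 0.30 ± 0.07. Genes that share a seed fell together, Mir212 by 0.55 ± 0.07 with Mir132 by 0.34 ± 0.07, and Mir221 by 0.78 ± 0.08 with Mir222 by 0.48 ± 0.11. In each of these pairs the members lie in 1 cluster of the genome, so that they are not separate observations. Mir135a-2 rose, with 4.57, 4.92 and 5.24 in hindbrain and 3.31, 3.42 and 3.99 in forebrain (1.43 ± 0.11, FDR = 2.55e-07). Mir219a-2, from which an oligodendrocyte microRNA is made, rose by 0.83 ± 0.12 and Mir34a by 0.73 ± 0.09. Mir219a-1, the other gene of miR-219a-5p, rose by 0.15 ± 0.06 (FDR = 0.0183) and was not called on the 1.0ST arrays.

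Genes of oligodendrocytes and myelin were mostly higher in hindbrain, 22 of 25 rising and 1 falling with a median of 0.66. Hapln2, a link protein of the nodes of Ranvier, had 8.80, 9.02 and 9.29 in hindbrain and 7.19, 7.48 and 7.90 in forebrain (1.51 ± 0.09, FDR = 3.05e-08). Mog, Mobp and Cnp, proteins of myelin and its oligodendrocytes, rose by 0.96 ± 0.07, 0.66 ± 0.07 and 0.65 ± 0.08. The lineage factors Olig1, Olig2, Sox10 and Nkx2-2 rose by 0.62, 0.58, 0.41 and 0.74. Of the 3 members that did not rise, Pdgfra stood at 9.40 ± 0.07 in hindbrain and 9.42 ± 0.08 in forebrain (SD, FDR = 0.329). Gpr17 differed by -0.02 (FDR = 0.316) and Cspg4 fell by 0.21 ± 0.07. Of 20 astrocyte genes 14 rose and 2 fell. Agt, angiotensinogen, which astrocytes make, had 10.83, 11.00 and 11.06 in hindbrain and 8.05, 8.81 and 9.97 in forebrain (2.10 ± 0.19, FDR = 7.48e-07), and Aqp4, the water channel of astrocyte end feet, rose by 0.85 ± 0.07. Slc1a2 and Slc1a3, the glutamate transporters of astrocytes, were the members that fell, and Slc1a3 (-0.18 ± 0.07) was not called when DD656, DD659 or DD677 was left out.

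Microglial genes tended the other way, 11 of 19 falling and 2 rising, with a median of only -0.15. Fcrls, a microglial receptor, had 5.33, 5.65 and 5.78 in hindbrain and 6.17, 6.57 and 6.82 in forebrain (-0.95 ± 0.06, FDR = 6.83e-08). Genes of vessels rose in 17 of 19 cases with 0 falling and a median of 0.34, led by Acta2, smooth muscle actin (0.88 ± 0.14). Meningeal genes rose in 13 of 16 and fell in 2, with a median of 0.47. Ogn, a proteoglycan of fibroblasts, rose by 1.00 ± 0.15, whereas Ccn3, which is also made by cortical neurons, fell by 2.65 ± 0.16. In the forebrain of DD676 the vessel level was -0.48 and the meningeal level -0.49, the lowest of the forebrains for both.

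Genes from adjoining tissues stood apart in a few arrays, and the size of the cerebellar differences depended on them. Of 20 cerebellar genes 16 rose and 1 fell, with a median of 1.15, although the cerebellum had been removed. Ppp1r17, a Purkinje cell gene, had 4.65, 5.48 and 9.38 in hindbrain and 3.80, 4.01 and 4.98 in forebrain (2.38 ± 0.47, FDR = 0.000514). Gabra6 and Cbln3, genes of cerebellar granule cells, had 4.38, 6.10 and 10.82, and 5.27, 6.42 and 11.04, in hindbrain. The hindbrains of DD658, DD676 and DD678 were at 8.22 to 9.38 for Ppp1r17 and 9.90 to 10.82 for Gabra6, while the other 5 were at 4.65 to 5.51 and 4.38 to 6.14. As a list level these 3 hindbrains stood at 1.34, 1.63 and 2.15 and the other 5 between -0.33 and 0.07. With surrogate variables Gabra6 and Cbln3 were not called (FDR = 0.0527 and 0.0556). Without these mice 14 cerebellar genes rose, 4 fell and the median was 0.67, and Ppp1r17, Gabra6 and Cbln3 rose by 1.13, 1.06 and 0.88. The list includes genes that brainstem nuclei also express, En2 and Pvalb among them.

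Of 18 choroid plexus genes, of the epithelium that makes cerebrospinal fluid, 1 rose (5.56%, against 28.2% of all clusters). The 4 that fell (22.2%, against 21.4%) were a share near that of all clusters, and the median was -0.24. Ttr, transthyretin, had 6.33, 9.38 and 12.72 in hindbrain and 11.62, 12.21 and 12.36 in forebrain, and was lower in hindbrain in 5 of 8 mice (-2.53 ± 0.74, FDR = 0.00602). In the 4 clozapine mice alone this was not called (-1.06, FDR = 0.244). The hindbrains of DD658, DD676 and DD678 held it at 12.37, 12.26 and 12.72, among or above the forebrains, and the other 5 at 6.33 to 9.49. The list level was 0.36 to 0.97 in these 3 hindbrains and -0.81 to -0.49 in the others, and without these mice 14 choroid plexus genes fell, the median was -0.79 and Ttr fell by 4.33. The member that rose, Otx2, is also a factor of midbrain neurons (1.51 ± 0.21).

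Olfactory bulb genes had 5 of 15 rising (33.3%, against 28.2% of all clusters) and 7 falling (46.7%, against 21.4%), with a median of -0.37. The rising share lay near that of all clusters. Their level in the forebrains fell into a higher set, DD676 (0.33), DD678 (0.31), DD675 (0.20) and DD656 (0.04), and a lower set, the other 4 mice at -0.46 to -0.31. Hindbrain levels were -0.10 to 0.27. Of 9 pituitary genes 2 rose (22.2%, against 28.2% of all clusters) and 0 fell, with a median of 0.13, and on the 1.0ST arrays 1 rose and 3 fell. The pituitary level was 0.49 in the hindbrain of DD658 and at most 0.12 in the other hindbrains. Of 6 blood genes 3 rose and 0 fell, with a median of 0.09, and on the 1.0ST arrays 3 rose and 3 fell. Over all clusters 30.5% rose and 38% fell on the 1.0ST arrays. Without DD658, DD676 and DD678, 8 of 9 glycine genes rose and 0 fell, 35 of 38 brainstem factors rose and 1, Isl1, fell, and 22 of 25 oligodendrocyte and myelin genes rose and 1 fell, while 35 of 36 telencephalic factors and all 28 pyramidal postsynaptic genes fell.

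**Figure D5:**
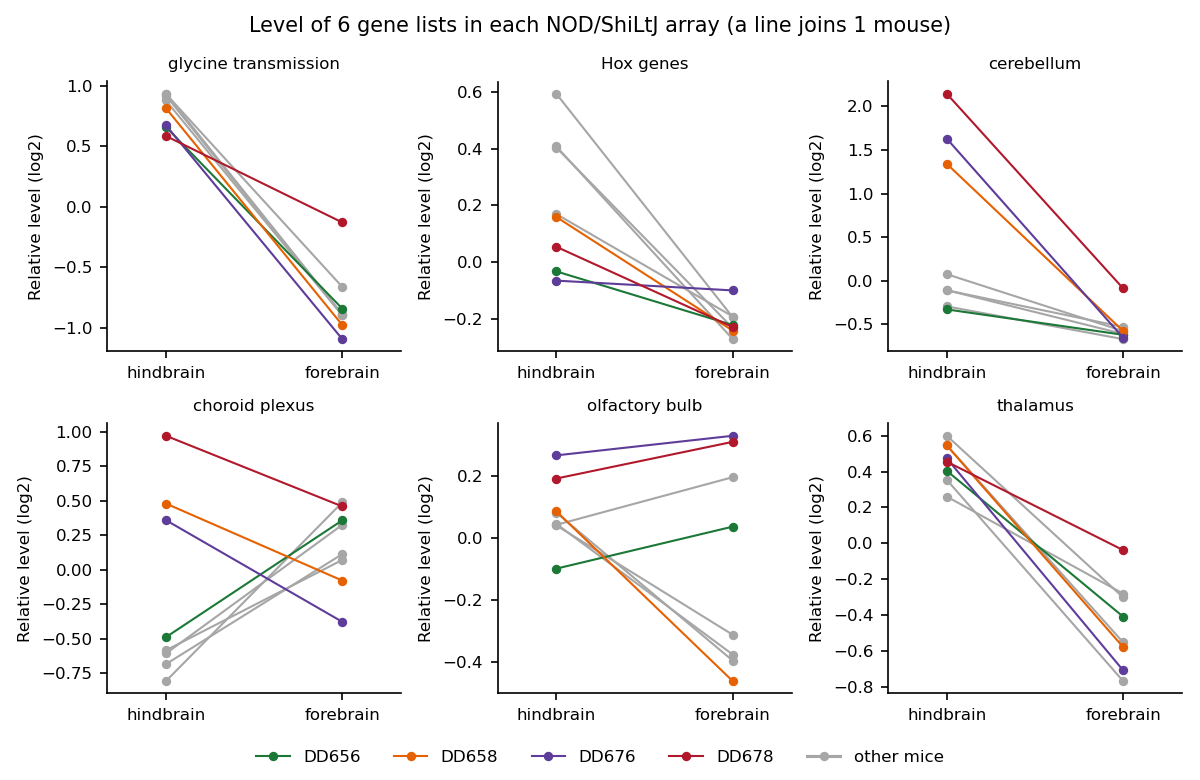
Relative level (log2, mean over list members after each was set to its mean over the 16 arrays) of 6 gene lists in each NOD/ShiLtJ array, hindbrain left and forebrain right, with a line for each mouse. The hindbrains of DD658, DD676 and DD678 lie above the others for cerebellum (1.34 to 2.15) and choroid plexus (0.36 to 0.97), and the forebrain of DD678 above the other forebrains for glycine transmission (-0.13).

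Of 27 antigen presentation and interferon genes 16 rose (59.3%) and 2 fell, with a median of 0.18. On the 1.0ST arrays 13 rose and 6 fell with a median of 0.06, and centring each array on its median also gave 13 and 6 (median 0.11). All clusters shifted too, with 30.5% rising and 38% falling on the 1.0ST arrays. After centring, 6387 of 28310 clusters rose and 11593 fell. Ifit3, an interferon-induced gene, had 7.42, 8.07 and 8.53 in hindbrain and 6.98, 7.32 and 7.49 in forebrain and rose in 7 of 8 mice (0.81 ± 0.13, FDR = 8.73e-05), and Oasl2 rose by 0.64 ± 0.07. B2m, the light chain of class I molecules, rose by 0.22 ± 0.05, and H2-DMa, which loads class II molecules, fell by 0.47 ± 0.08. Genes of the H2 complex resemble each other, so their clusters may share signal.

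Of 28 growth factors 13 rose (46.4%, against 28.2% of all clusters) and 7 fell (25.0%, against 21.4%), with a median of 0.10. The falling share lay near that of all clusters. On the 1.0ST arrays 14 rose and 12 fell, where 30.5% of all clusters rose and 38% fell. Pdgfd, a platelet-derived growth factor, had 7.89, 8.15 and 8.34 in hindbrain and 6.13, 6.70 and 7.22 in forebrain (1.44 ± 0.10, FDR = 7.32e-08). The fibroblast growth factors Fgf18, Fgf1 and Fgf22 rose by 1.30 ± 0.06, 1.27 ± 0.06 and 0.62 ± 0.05, and Fgf16 fell by 0.66 ± 0.07. Hgf, hepatocyte growth factor, fell most, with 5.17, 5.50 and 5.73 in hindbrain and 6.93, 7.03 and 7.18 in forebrain (-1.52 ± 0.07, FDR = 2.64e-09).

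No call was made for an effect of clozapine on the region difference. At FDR below 0.05 limma called 0 of 28310 clusters between the 4 clozapine and the 4 vehicle mice, and 1502 clusters (5.31%) had an unadjusted p below 0.05. The 1.0ST arrays gave 0 calls and 1636 clusters. Leaving out DD675 alone gave 156 calls. The clozapine mice left in that fit were DD658, DD676 and DD678, whose hindbrains were high in cerebellar and choroid plexus genes. Clozapine and these high levels cannot be told apart in that fit. The hindbrains with high cerebellar genes all came from clozapine mice, and Gabra6 differed between hindbrain and forebrain by 4.62 in clozapine mice and 0.79 in vehicle mice (difference 3.83 ± 0.66, FDR = 0.746). For Ttr the difference between clozapine and vehicle mice was 2.93 ± 1.24 (FDR = 0.917). The cerebellar list had a median of 1.50 in the 4 clozapine mice and 0.69 in the 4 vehicle mice.

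On the 1.0ST arrays, which carried the same RNA, all 815 2-fold clusters had the same direction and were called. Of all 28310 clusters, 68.5% (19393) were called there. The median size of their difference was 1.03 there and 1.31 on the 1.1ST arrays. Of 12521 clusters called on both formats, 12452 had the same direction and 69 the opposite.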

How the data were processed

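RNA of hindbrain and forebrain was hybridised by the authors to both formats of the Mouse Gene array. The deposited values are log2 intensities per transcript cluster, which the authors made by RMA (sketch-quantile normalization and median polish) in Affymetrix Expression Console 1.1, leaving out control and unannotated clusters. No further normalization was applied, and precision is limited by 8 mice per region.

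All 28310 clusters were fitted with limma 3.58.1 in R 4.3.3, with mouse as a block, treatments pooled and two-sided tests. FDR followed the study's methods, in which the number of true nulls is estimated as 2 times the number of p-values above 0.5, and clusters below 0.05 were called. Hindbrain and forebrain of a number came from the same mouse, by the mouse identifier in the labels. Their deviations from the region means correlated at a mean r of 0.12 (-0.03 to 0.30, above 0.1 in 5 of 8 mice). Over 56 pairs of different mice the mean was -0.02 (-0.25 to 0.35, above 0.1 in 6), so the ranges overlapped. Because deviations within a region sum to 0, the mean over different mice is tied to that over same mice and is not a separate comparison. Strain and treatment were tested on 1 difference per mouse. Of all clusters, 21207 carried 1 gene symbol, 1867 several and 5236 none. Genes were named from single-symbol clusters (21108 after 99 that disagreed between annotation tables were set aside, 18810 genes), taking the cluster with the highest mean, and Mbp was not analysed here. Of 722 listed genes 646 were measured.

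Named genes were the 15 largest increases and decreases with the same direction in all 8 mice on both formats, up to 3 called members of each list in each direction with further members that clarify a list, the 5 largest strain differences in each direction, the growth factors the study discusses, and Tbr1, Neurod6, Slc6a5, Slc6a3 and Ttr. Members and gene lists were chosen with earlier results of these data known.

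Alternatives were no mouse block, a random block, the 1.0ST arrays, all 48 arrays of 1 format with and without 5 surrogate variables, a treatment term, each treatment alone, median-centred and quantile-normalized arrays, only single-symbol clusters, only clusters averaging above 6, Benjamini-Hochberg adjustment, an unmoderated test, and each mouse left out. Leaving out DD658, DD676 and DD678 together was chosen after seeing the data. The fits were tested on simulated data. Python 3.11.15 and statmod 1.5.0 were also used.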

Additional observations from a re-analysis of the deposited data

Results flagged for a closer look

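Single mice lay far from the other 7 by Dixon's gap test at 7 of 41 within-mouse gene differences and 14 of 64 list levels. Chance marks about 1 in 20 independent groups. These genes and lists come from the same mice and some lists share members, so the counts cannot be set against that rate. The clearest case was DD678, whose hindbrain minus forebrain differences were the smallest of the 8 mice for Slc6a5 (2.95, others from 4.64), Glra1 (2.46), Sncg (1.88), Ebf3 (1.15), C1ql4 (1.01), Chrna6 (0.67) and Lncenc1 (1.02). Its forebrain had the highest level of the glycine list (-0.13), the dopamine list (-0.19), the serotonin and noradrenaline list (-0.18), the GABA-A receptor list (0.0388) and the cerebellar list (-0.0900). Its hindbrain had the highest level of the glutamate transporter list (0.23) and the lowest of the microglial list (-0.34). The forebrain of DD676 had the highest levels of the Hox list (-0.10) and the blood list (0.0680), and the lowest of the vessel list (-0.48) and the meningeal list (-0.49). DD658 had the highest pituitary level (0.49) and the lowest microRNA gene level (-0.0945) among hindbrains, and the highest immediate early gene level (0.85) among forebrains. Why these arrays differ was not tested.

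The hindbrain minus forebrain difference itself differed between NOD/ShiLtJ and C57BL/6J, by limma on 1 difference per mouse, at 10 genes taken by size. NOD/ShiLtJ was above C57BL/6J for Tmprss11d (1.80), 4930578G10Rik (1.50), Serpina1b (1.17), Hspb8 (0.81) and Rarres1 (0.81). It was below for Prkcd (-1.71), Crnde (-1.32), Synpo2 (-1.16), Ccl19 (-1.12) and Rgs16 (-1.02).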

How the results depend on the processing

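All 815 2-fold clusters kept their direction in every alternative that held them, and 810 to 815 stayed called (728 of 728 with a mean above 6 and 733 of 733 with 1 symbol). Several alternatives change the test or the set of clusters but not the difference of a cluster, so direction could not change there. They are no block, a random block, all 48 arrays without surrogate variables, a treatment term, Benjamini-Hochberg adjustment, the unmoderated test and both subsets of clusters. The counts of gene results and list medians below include these settings. With no replicate block for the mouse 13464 clusters were called, against 14023 with it. The 4 clozapine mice alone gave 7627 calls (4780 higher, 2847 lower). On the 1.0ST arrays 10749 clusters were lower, and 2-fold calls numbered 198 higher and 270 lower. Median-centred arrays gave 11593 lower, 5 surrogate variables gave 168 2-fold higher calls, and the strain test on 1.0ST arrays gave 137 calls. Without single mice, calls numbered 12550 to 14340 (7303 to 8133 higher, 5165 to 6207 lower), 2-fold calls 322 to 391 higher and 452 to 495 lower, strain calls 200 to 320 and treatment calls 0 to 156. Of the gene results under alternatives, 3298 kept direction and call, 74 lost the call, 1 gained it and 9 reversed. Of the strain differences of single genes, 286 kept direction and call and 54 lost the call. Of the list medians, 673 moved by less than the spread between mice, 33 by more, and 7 reversed. The choroid plexus median was 0.10 in the 4 clozapine mice and the olfactory bulb median 0.29 over clusters with a mean above 6. The pituitary median was -0.0704 on 1.0ST arrays, -0.0277 in the 4 vehicle mice, -0.0590 over clusters with a mean above 6, -0.0354 without DD658, DD676 and DD678, and -0.0171 (without DD658) to 0.167 without single mice. On 1.0ST arrays Tbx19, a pituitary factor, was at -0.0962 and Fos at -0.0822. The uncalled difference of 4930578G10Rik was 0.29 with surrogate variables, 0.11 in vehicle mice, 0.0067 after quantile normalization, 0.0926 without DD658, DD676 and DD678, and -0.151 to 0.178 without single mice. The cause was not tested. Mature microRNAs and array run were not measured here.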
